A study of Mus musculus with 12 samples.

Results

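The Atf4 program of the integrated stress response was followed in mouse left ventricle through 10 genes: *Atf4*, *Atf5*, *Ddit3*, *Asns*, *Trib3*, *Mthfd2*, *Fgf21*, *Gdf15*, *Psat1* and *Phgdh*. They were taken by name, as the rows of the count tables whose name, without its final hyphen and number, is one of these symbols. Of 21669 rows, 11 were found, 1 for each gene except *Ddit3*, which has 2. Adult hearts of wild-type mice (WT) and of mice labelled Rpl3l-/- (KO), which lack a muscle paralog of the ribosomal protein Rpl3, were compared in biological triplicate. Each genotype gave 3 libraries of ribosome-protected fragments (footprints, RPF) and 3 of polyadenylated RNA, 12 in all. The labels give genotype and tissue only, and no age beyond adult, sex, strain or deletion design. No comparison is made here with a heart under an applied stress.

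The integrated stress response starts when a kinase phosphorylates the translation factor eIF2, which slows initiation on most mRNAs. A few mRNAs with upstream reading frames in their leaders escape this block, that of *Atf4* first among them: under stress, ribosomes pass an inhibitory upstream frame and reach the Atf4 start codon. Atf4 then switches on genes of amino acid supply, serine and one-carbon metabolism, other stress factors and secreted hormones. In muscle and heart the program is known to be raised by faults of the mitochondria.

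The members' transcripts are those of GENCODE M21 (mouse build GRCm38), which may not be the annotation the authors used. *Atf4* (ENSMUSG00000042406.8) was represented by Atf4-201 (chromosome 15, 80255184 to 80257541, plus strand), with 3 exons, a leader (5′ UTR) of 594 bases and a coding sequence of 1050 bases. Its leader holds 3 ATG codons that open frames of 36, 3 and 59 codons, and the frame of 59 codons runs 83 bases into the main reading frame. *Atf5* (ENSMUSG00000038539.15), a close relative, was represented by Atf5-201 (chromosome 7, 44812256 to 44816658, minus strand), with a leader of 373 bases. The *Atf5* leader has a similar layout: a frame of 3 codons comes first, and a frame of 58 codons overlaps the main frame by 56 bases. *Ddit3* (ENSMUSG00000025408.15), which encodes the stress factor Chop, was represented by Ddit3-201 (chromosome 10, 127290774 to 127296288, plus strand). Its leader of 186 bases holds 2 ATG codons, at bases 56 and 65, in the same upstream frame. They lie 34 and 31 codons before a shared stop codon, and this frame does not reach the main frame. The annotation lists this frame, from its first ATG, as a gene of its own, Ddit3-204 (ENSMUSG00000116429.1), whose 105 bases are bases 56 to 160 of Ddit3-201. Of the other members with a leader, *Gdf15* has 4 upstream ATG codons, *Asns* and *Psat1* have 1 each, and *Trib3*, *Mthfd2*, *Fgf21* and *Phgdh* have none. Over all annotated rows with a leader, 54.3% have at least 1 upstream ATG and 33.3% have 2 or more.

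Atf4 and its C/EBP partners bind a composite element, searched here as TGATGNAA on both strands in the RefSeq promoter windows (GRCm38.p6), which reach from 250 bases before to 50 after each start site. All 10 genes were in that table, with 13 windows, and 3 genes held the element: *Asns*, *Trib3* and *Fgf21*. Of all 32851 windows, 3.97% held it. The surroundings are shown for these 3 genes, read on the coding strand with the element in capitals (a match describes the letters only). The *Asns* stretch is chr6:7693210-7693272 (minus strand), and its element begins 23 bases before the RefSeq start site. The *Trib3* stretch is chr2:152344028-152344057 (minus strand), and its element begins at base 15 counted from the RefSeq start site. For *Asns* and *Trib3* these RefSeq start sites differ from those of the counted rows. Trib3-201 begins at 152344032, so by that transcript the *Trib3* element lies before the start. Asns-202 begins at 7692871, downstream of the RefSeq start of *Asns*. The *Fgf21* stretch is chr7:45615582-45615669 (minus strand), and its element begins 139 bases before the start site. In *Trib3* and *Fgf21* the element is on the opposite strand, so that the capitals show its reverse complement.
Asns: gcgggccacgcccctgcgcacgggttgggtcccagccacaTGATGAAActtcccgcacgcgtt
Trib3: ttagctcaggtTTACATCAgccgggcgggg
Fgf21: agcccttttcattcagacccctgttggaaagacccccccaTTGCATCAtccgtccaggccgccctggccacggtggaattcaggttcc

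Total counts lay between 6635242 and 8459004 in RNA and between 3827862 and 7474602 in RPF, and transcripts of the mitochondrial genome took 49.8% to 58.2% of RNA counts. The targeted gene *Rpl3l* gave 2726 to 3329 RNA counts in WT and 276 to 442 in KO, and 937 to 1108 footprint counts in WT and 30 to 65 in KO. Markers of ventricular cardiomyocytes were all detected (summed RNA level 45600 to 61300 CPM in WT and 44600 to 51200 in KO; CPM is the usual scaling of counts by library size, here with TMM factors). Among markers of other cells in RNA, endothelial ones (5 of 5 detected) summed to 53.1 to 61.6 CPM in WT and 66.9 to 77.8 in KO. Immune markers (7 of 7) summed to 167 to 184 CPM in WT and 141 to 164 in KO. Fibroblast, smooth muscle, adipose, red blood cell and atrial sums overlapped between genotypes, and the liver gene *Alb* was at 0 in RNA. Endothelial sums in RPF overlapped (970 to 1170 CPM in WT and 1110 to 1320 in KO), as did immune sums (577 to 673 and 577 to 613). In RPF the library WT 1 stood apart on the first principal component (score 45.1, the other 5 between -11.8 and -4.23). In RNA that component put WT 3, KO 1 and KO 3 (14.3 to 19.6) opposite WT 1, WT 2 and KO 2 (-18.5 to -14.7), which is not the genotype.

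The transcription factors had by far the most RNA and yet few footprints. *Atf4* was counted 646, 766 and 825 times in the RNA of WT 1 to 3 and 614, 786 and 857 times in that of KO 1 to 3. The same gene gave just 12, 25 and 24 footprints in WT and 64, 50 and 22 in KO. *Ddit3* (Ddit3-201) had 248, 301 and 243 RNA counts in WT and 122, 219 and 175 in KO, against footprint counts of 23, 10 and 14 in WT and 12, 10 and 4 in KO. *Atf5* gave 163, 165 and 262 RNA counts in WT and 192, 175 and 250 in KO. It had 34, 16 and 35 footprints in WT and 52, 35 and 23 in KO. In each library these 3 mRNAs thus gave 122 to 857 RNA counts and 4 to 64 footprint counts. Ddit3-204, the upstream frame listed as a gene, was at 0 in all 12 libraries, although each of its 78 windows of 28 bases is also in Ddit3-201. How reads that match both rows were assigned is not given in the sources used here, so this 0 says nothing of ribosomes on that frame.

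**Figure D1:**
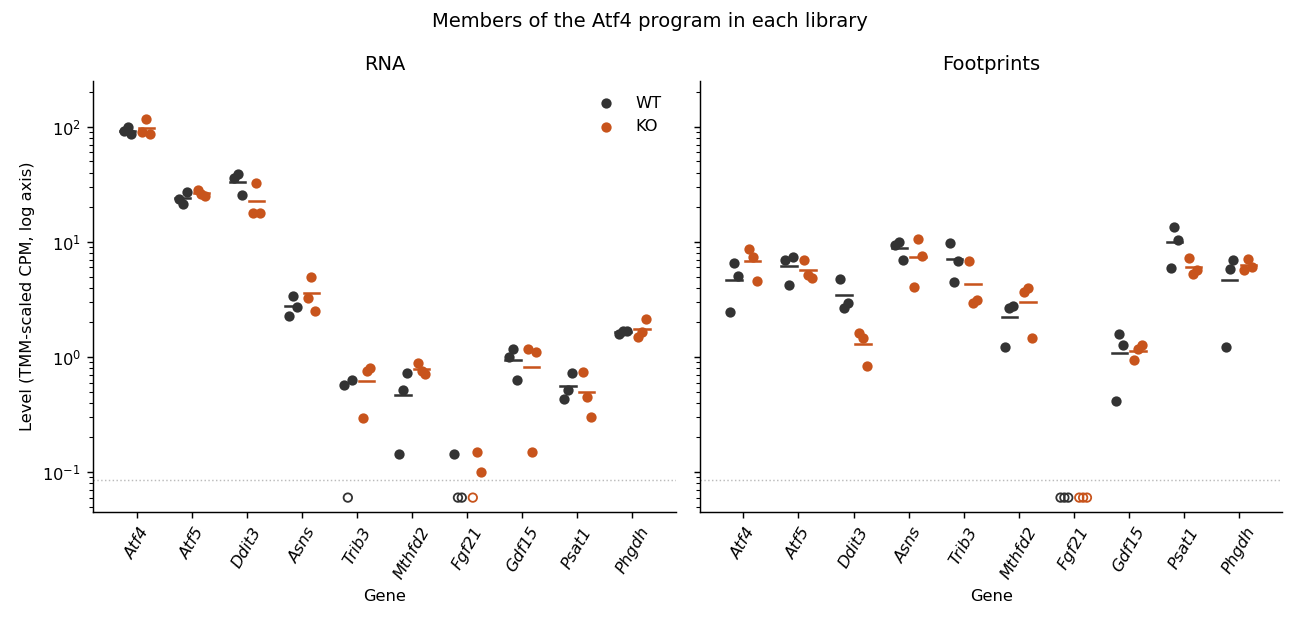
Level of each gene in each library (TMM-scaled CPM, log axis), RNA on the left and footprints on the right; dots are libraries (WT black, KO orange), bars are means of 3 libraries, and open circles under the dotted line are libraries at 0. *Atf4*, *Atf5* and *Ddit3* lead in RNA but not in footprints, and KO and WT dots separate only for *Ddit3* footprints.

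The ratio of footprints to RNA, each as CPM of the nuclear-encoded counts and averaged over 6 libraries, placed these 3 factors near the bottom of the tissue. For 12664 rows with at least 30 counts in all and a count in both assays, the median ratio was 2.26 (quartiles 0.774 and 7.27). The *Atf4* ratio was 0.0279, which is 0.0240 in WT and 0.0313 in KO, and 66 rows were lower (percentile 0.521). The *Ddit3* ratio was 0.0394 (percentile 0.837) and the *Atf5* ratio 0.107 (percentile 2.79). Rows with more RNA had lower ratios (median 0.494 for rows near the *Atf4* level and 5.08 for rows near that of *Trib3*), so each gene was also set beside rows within a factor of 2 of its own RNA level. Of 740 such rows 1.22% were lower than *Atf4*, of 1747 rows 0.572% were lower than *Ddit3*, and of 1811 rows 2.87% were lower than *Atf5*. By replicate number, which the labels do not tie to a heart, the *Atf4* ratio ran from 0.014 (WT 1) to 0.0414 (KO 1), the *Ddit3* ratio from 0.0201 (KO 3) to 0.07 (WT 1), and the *Atf5* ratio from 0.0807 (KO 3) to 0.1575 (WT 1). The 3 factors therefore kept their low ratio in all 6 number-matched pairs of libraries. Rows with 2 or more upstream ATG codons had a median ratio of 1.93 (3673 rows), and rows with none a median of 2.42 (5913 rows). Rows with an upstream frame that overlaps the main frame had a median of 1.86 (2018 rows, quartiles 0.637 and 5.96). The part of upstream frames in the ratios of the 3 factors was not tested. If only coding sequences were counted, footprints on upstream frames are not in these values; the region counted is not given in the sources used here.

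**Figure D2:**
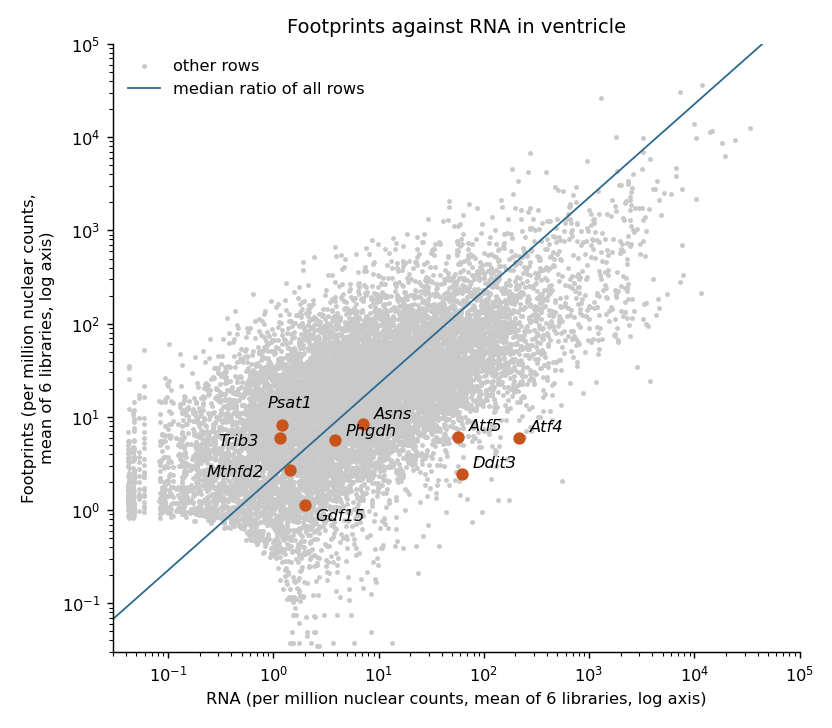
Footprints against RNA for 12664 rows (CPM of nuclear-encoded counts, mean of 6 libraries each, both axes log); the 9 members with a ratio are in orange and the line marks the median ratio of 2.26. *Atf4*, *Ddit3* and *Atf5* lie along the lower right edge, while *Psat1* and *Trib3* lie above the line.

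The enzymes had little RNA and as many footprints as the factors. *Asns*, asparagine synthetase (Asns-202, chromosome 6, 7675169 to 7692871), gave 16, 26 and 26 RNA counts in WT and 22, 33 and 25 in KO. It had 46, 38 and 33 footprints in WT and 30, 73 and 36 in KO. *Phgdh*, which commits a glycolytic intermediate to serine synthesis (Phgdh-201, chromosome 3, 98313170 to 98339990), gave 11, 13 and 16 RNA counts in WT and 10, 11 and 21 in KO. *Phgdh* had 6, 22 and 33 footprints in WT and 42, 48 and 29 in KO, the WT 1 library being the lowest of the 6. *Psat1*, the next enzyme of that pathway (Psat1-201, chromosome 19, 15904678 to 15925059), was at the counting floor in RNA, with 3, 4 and 7 counts in WT and 5, 3 and 3 in KO. Its footprints were clear of the floor, at 29, 51 and 49 counts in WT and 54, 36 and 27 in KO. *Mthfd2*, the mitochondrial folate enzyme of the program (Mthfd2-201, chromosome 6, 83305691 to 83317606), gave 1, 4 and 7 RNA counts in WT and 6, 5 and 7 in KO. Its footprints numbered 6, 10 and 13 in WT and 27, 27 and 7 in KO, so that KO 3 lay among the WT libraries. Footprint-to-RNA ratios were 1.17 for *Asns*, 1.47 for *Phgdh*, 1.87 for *Mthfd2* and 6.86 for *Psat1* (percentiles 33.8, 39.3, 45.4 and 74.1), in the body of the tissue's range.

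*Trib3*, a pseudokinase that Atf4 and Chop induce and that restrains Atf4 in turn (Trib3-201, chromosome 2, 152337422 to 152344032), had almost no RNA. WT libraries held 4, 0 and 6 RNA counts and KO libraries 2, 5 and 8. It nonetheless had footprints, 48, 17 and 32 in WT and 51, 20 and 15 in KO. The 183 footprints against 25 RNA counts gave a ratio of 5.08, which is the median (5.08) of the 2645 rows within a factor of 2 of its RNA level. *Psat1* was likewise ordinary beside rows of its own RNA level, 58.6% of which were lower.

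The secreted hormones were at the edge of detection. *Fgf21*, a metabolic hormone (Fgf21-201, chromosome 7, 45613886 to 45615490), had 3 RNA counts over 6 libraries (1, 0 and 0 in WT; 0, 1 and 1 in KO) and 0 footprint counts in any library. A count of 0 allows up to 0.404 to 0.791 CPM per RPF library. *Gdf15*, which signals distress to the brain (Gdf15-201, chromosome 8, 70629393 to 70632095), gave 7, 9 and 6 RNA counts in WT and 8, 1 and 11 in KO. *Gdf15* footprints numbered 2, 6 and 6 in WT and 7, 8 and 6 in KO. With the floor set at 3 counts in a library, *Fgf21* and Ddit3-204 were at or under it in all 12 libraries. In RNA *Psat1* was at it in 3 of 6 libraries, *Trib3* in 2, and *Mthfd2* and *Gdf15* in 1 each; in RPF *Gdf15* was in 1.

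Per length, the members ran over a wide range in RNA and a narrow one in footprints. RNA CPM of nuclear-encoded counts, divided by kb of transcript, was 124 for *Atf4* (103 to 145 over 6 libraries), 69.7 for *Ddit3* (48.7 to 95.7) and 31.6 for *Atf5* (24.8 to 37.6), ranges that do not overlap. Next came *Asns* at 3.55 (2.19 to 5.19), *Phgdh* at 2.03 (1.61 to 2.76) and *Gdf15* at 1.28 (0.205 to 1.84), each overlapping its neighbour. *Mthfd2* (0.692), *Trib3* (0.570) and *Psat1* (0.460) overlapped one another. Footprint CPM on the same scale, divided by kb of coding sequence, was 7.42 for *Psat1* (4.83 to 12.3), 7.20 for *Atf5*, 5.69 for *Atf4*, 5.51 for *Trib3*, 4.96 for *Asns* and 4.82 for *Ddit3*. The next means were those of *Phgdh* (3.53), *Mthfd2* (2.57) and *Gdf15* (1.25, 0.458 to 1.76). The 6 highest all overlapped in range, and *Phgdh* (0.782 to 4.62) and *Mthfd2* (1.19 to 3.83) overlapped *Atf4*, *Trib3*, *Asns* and *Ddit3*. The order in footprints was thus resolved only in part. *Psat1* and *Atf5* (5.02 to 9.21) lay wholly above *Phgdh*, *Mthfd2* and *Gdf15*. *Gdf15* also lay wholly below *Atf4* (2.38 to 8.60), *Trib3* (2.80 to 9.40) and *Asns* (2.51 to 6.46). From the highest to the lowest of these 9 genes the span was 270-fold in RNA and 5.94-fold in footprints. This contrast is not particular to the members, since ratios of footprints to RNA fell with RNA level over the tissue. Without division by length, the median ratio was 0.494 for rows near the *Atf4* RNA level and 4.99 for rows near that of *Psat1*. The spans were not set beside those of other gene groups. The low end in RNA is *Psat1*, which rests on 25 counts over 6 libraries and was at the floor in 3 of them. These lengths assume RNA counted over whole transcripts and footprints over coding sequence, which the sources used here do not state.

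**Figure D3:**
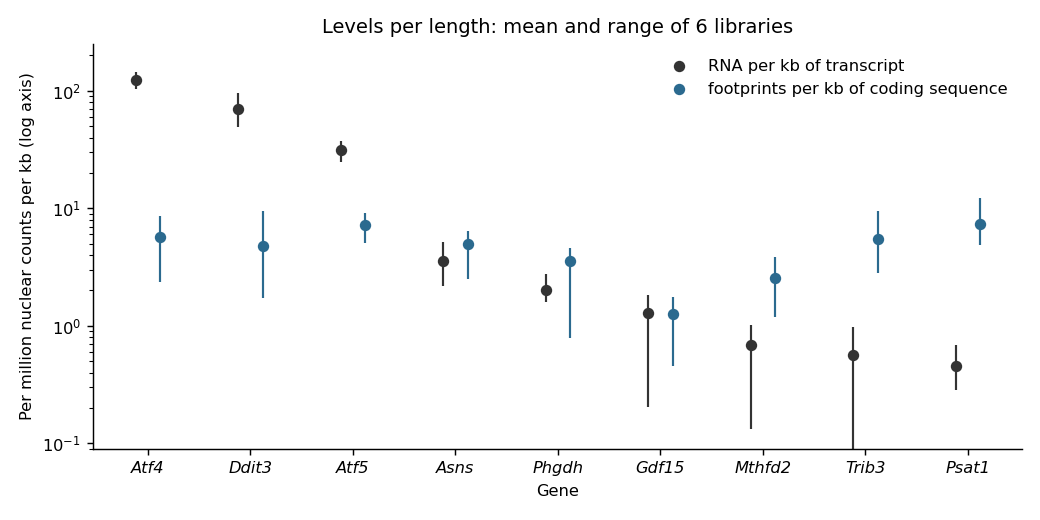
RNA per kb of transcript (black) and footprints per kb of coding sequence (blue), as CPM of nuclear-encoded counts on a log axis; dots are means of 6 libraries and lines their range (cut off at the bottom for *Trib3*, which had a library at 0). RNA spans 270-fold across the 9 genes and footprints 5.94-fold, with the low end in RNA (*Psat1*) near the counting floor. Over the tissue, too, rows with more RNA had lower ratios of footprints to RNA.

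No member differed between genotypes past the threshold. In edgeR's quasi-likelihood test, 5 of the 11 rows passed the low-count filter in RNA, 8 in RPF and 5 in translational efficiency (TE, the change in footprints beyond that in RNA). At an adjusted p below 0.05, 0 members were called in RNA, where 0.0119% of 8379 genes tested were called (*Rpl3l* alone). RPF gave 0 members too (0.00897% of 11153 genes, again *Rpl3l*), as did TE (0% of 8044). DESeq2 called 0 members in each as well. At an unadjusted p below 0.05 in these filtered edgeR fits the number of members was likewise 0 for RNA (2.54% of genes tested), 0 for RPF (5.96%) and 0 for TE (3.73%).

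*Atf4* did not separate by genotype in RNA, at 92.6, 99.5 and 86.4 CPM in WT and 90.7, 118 and 86.8 CPM in KO. The log2 ratio of KO to WT, used as fold change throughout, was 0.08 in RNA (SE 0.18, edgeR adjusted p = 0.999). *Atf4* footprints were 2.47, 6.59 and 5.08 CPM in WT and 8.62, 7.33 and 4.61 CPM in KO, with KO 3 inside the WT range. The means were 4.71 ± 2.1 and 6.86 ± 2.0 CPM (SD, n = 3 each), a log2 fold change of 0.56 (SE 0.48, edgeR adjusted p = 0.882). Without WT 1, the library that stands apart, that value was 0.25, without KO 1 it was 0.36, and without WT 2 it was 0.87. In TE it was 0.53 (SE 0.38, edgeR adjusted p = 0.9997), or 0.22 without WT 1, 0.28 without KO 1 and 0.77 without WT 2. The difference in *Atf4* footprints was thus within the spread between libraries, and its size moved with single libraries in both directions.

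*Ddit3* was the member with the widest gap, lower in KO in both assays, and its footprints were the sole case of groups that do not overlap. Footprint levels were 4.73, 2.64 and 2.96 CPM in WT and 1.62, 1.47 and 0.838 CPM in KO, each KO library below each WT library. Among members tested, 1 of 8 lay wholly below WT in RPF and 0 of 8 wholly above, against 5.77% and 6.27% of all genes tested. In RNA it was 0 of 5 members in either direction, against 3.19% below and 4.14% above. The *Ddit3* footprint log2 fold change was -1.36 (SE 0.67, unadjusted p = 0.060, edgeR adjusted p = 0.834), from means of 3.44 ± 1.1 CPM (WT) and 1.31 ± 0.41 CPM (KO), SD, n = 3 each. These values rest on 47 WT and 26 KO counts. *Ddit3* RNA was 35.6, 39.1 and 25.5 CPM in WT and 18.0, 32.8 and 17.7 CPM in KO, where KO 2 lay above WT 3. Its RNA log2 fold change was -0.55 (SE 0.27, unadjusted p = 0.065, edgeR adjusted p = 0.999), or -0.90 without KO 2, and the TE value -0.77 (SE 0.50, edgeR adjusted p = 0.9997), from -1.08 without KO 1 to -0.48 without KO 2. The unadjusted p for *Ddit3* was below 0.05 in 6 of 13 alternative fits in RNA (lowest 0.0022) and in 1 of 12 in RPF (0.0063). The adjusted p was 0.523 or more in all of those in RNA. The 3 RNA libraries on 1 side of the first component (WT 3, KO 1, KO 3) were the 3 lowest for *Ddit3*, and with a term for that side the RNA value was -0.35 (SE 0.13, edgeR adjusted p = 0.726). The endothelial and immune marker sums above separated by genotype in RNA and overlapped in RPF. Beyond the RNA fit with that term, the part of the component in the *Ddit3* values was not tested, nor was that of these sums.

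*Atf5* overlapped between genotypes in both assays, with mean RNA of 24.1 ± 3.1 CPM (WT) and 26.6 ± 1.6 CPM (KO), SD, n = 3 each. Its log2 fold change was 0.14 (SE 0.16) in RNA, -0.14 (SE 0.44) in RPF and -0.26 (SE 0.32) in TE. Leaving out single libraries gave 0.06 to 0.25, -0.34 to 0.01 and -0.40 to -0.14. The 3 bZIP factors thus did not share a direction in footprints, where *Atf4* was higher and *Ddit3* lower in KO by values that did not pass the test.

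The enzymes and *Trib3* were split in direction too. *Psat1* footprints were 5.97, 13.4 and 10.4 CPM in WT and 7.28, 5.28 and 5.66 CPM in KO, a log2 fold change of -0.70 (SE 0.40, edgeR adjusted p = 0.843). It was -0.42 without WT 2, the highest library, and -0.96 without WT 1, which lay within the KO range (unadjusted p = 0.020, edgeR adjusted p = 0.647). *Trib3* footprints were 9.87, 4.48 and 6.77 CPM in WT and 6.87, 2.93 and 3.14 CPM in KO, a log2 fold change of -0.70 (SE 0.50), or -0.37 without WT 1 and -1.21 without KO 1. *Asns* was 0.33 (SE 0.32) in RNA on the same scale, from 0.02 without KO 2 to 0.54 without KO 3. Its RPF value was -0.25 (SE 0.41), from -0.62 without KO 2 to 0.06 without KO 1, and its TE value -0.56 (SE 0.54), or -0.30 without KO 1.

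*Mthfd2* and *Phgdh* footprints had positive values, 0.48 (SE 0.67) and 0.43 (SE 0.55). Both genes were lowest in WT 1, at 1.23 CPM each, and without it their values were 0.19 and -0.03. *Mthfd2* was at 0.24 without KO 2 and 0.79 without KO 3, and *Phgdh* at 0.87 without WT 3. *Phgdh* was 0.11 (SE 0.32) in RNA and 0.35 (SE 0.67) in TE, with ranges of -0.08 to 0.20 and -0.08 to 0.80 when single libraries were left out. *Gdf15* was not tested; footprints averaged 1.09 ± 0.61 (WT) and 1.12 ± 0.16 CPM (KO), and RNA 0.934 ± 0.28 and 0.815 ± 0.58 CPM (SD, n = 3 each). These are tissue samples, in which fewer cells of a type and less RNA per cell cannot be told apart.

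**Figure D4:**
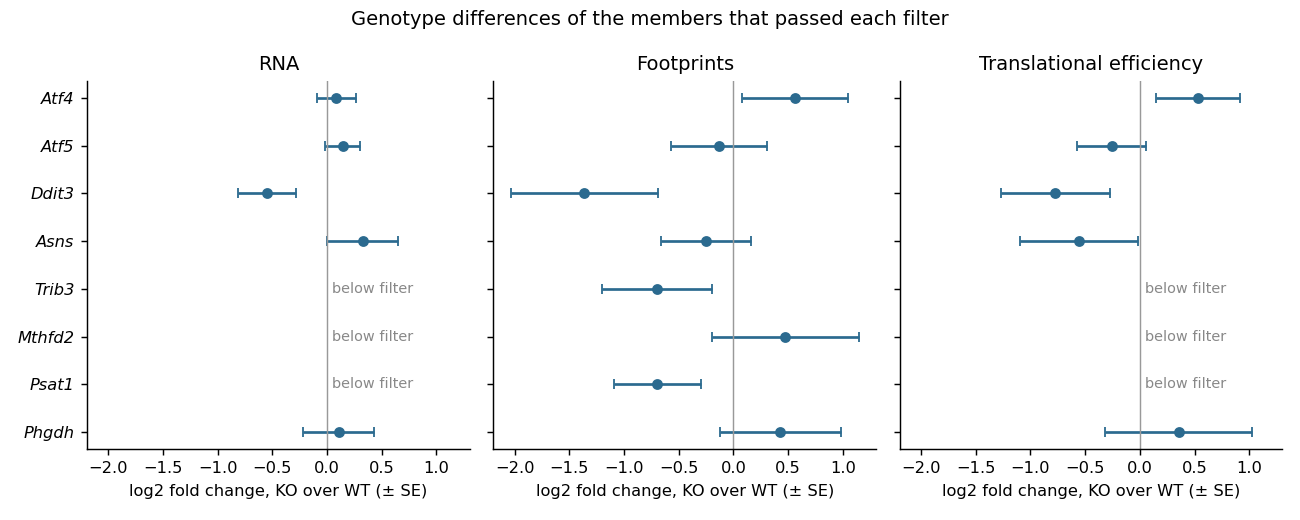
Log2 fold change of KO over WT with its standard error for the members that passed the filter, in RNA, footprints and translational efficiency. Values lie on both sides of 0 in each panel, and the footprint value of *Ddit3*, -1.36, is the lowest.

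The rest of the pathway was followed through lists of its parts, and no list gene passed an adjusted p of 0.05 in the filtered edgeR fits or in DESeq2. Ranges beside the values below are over the alternative fits, most of which leave out 1 library. Of the genes that set eIF2 phosphorylation and exchange, 15 were tested in RNA (median log2 fold change -0.07, 5 higher and 10 lower) and 18 in RPF (0.04, 9 and 9). Over all genes tested the median was -0.01 in RNA (4111 of 8379 higher) and 0.00 in RPF (5599 of 11153 higher). Unadjusted p-values below 0.05 were found for 1 gene of the list by RNA, for 2 by RPF and for 1 by TE. The shares over all genes tested were 2.54%, 5.96% and 3.73%. *Eif2ak3*, the eIF2 kinase Perk of the endoplasmic reticulum, had the lowest RNA value (-1.46, SE 0.54, range -2.18 to -1.11, edgeR adjusted p = 0.999), from 19, 15 and 12 counts in WT to 2, 9 and 5 in KO. *Oma1*, the mitochondrial protease that starts the signal from mitochondria to eIF2, had the highest footprint value (0.52, SE 0.19, range 0.35 to 0.63, edgeR adjusted p = 0.834). Its footprints were 37.2, 36.6 and 45.3 CPM in WT and 69.9, 48.4 and 52.8 CPM in KO, without overlap. In RPF 6.27% of all genes tested lay wholly above WT. The RNA value of *Oma1* was 0.14. *Eif2s2*, the beta subunit of eIF2, was the second gene with an unadjusted p below 0.05 in RPF. It was at 0.39 (SE 0.17, range 0.28 to 0.54) there, -0.41 (SE 0.30, range -0.71 to -0.15) in RNA and 0.83 (SE 0.37) in TE. The highest RNA value was that of *Eif2ak1*, the heme-regulated eIF2 kinase (0.23, SE 0.34, range 0.12 to 0.42), and the lowest footprint value again that of *Eif2ak3* (-0.39, SE 0.33, range -0.54 to -0.09).

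Other targets of Atf4 were centred near 0: 26 were tested in RNA (median -0.02, 10 higher and 16 lower) and 36 in RPF (0.03, 20 higher and 16 lower). Unadjusted p-values below 0.05 numbered 1 in RNA, 3 in RPF and 1 in TE, against 2.54%, 5.96% and 3.73% of all genes tested. *Slc7a1*, the transporter of arginine and lysine, was the most distinct of them in RPF, at 37.2, 36.4 and 39.8 CPM in WT and 61.4, 68.9 and 59.1 CPM in KO. Each KO library lay above each WT library, as for 6.27% of all genes tested in RPF. The log2 fold change of *Slc7a1* was 0.74 (SE 0.17, unadjusted p = 4.4e-04, edgeR adjusted p = 0.566). Its adjusted p was 0.042 in the unfiltered edgeR fit, which called more genes over all than the filtered fit. Over the alternatives it lay between that value and 0.9999. *Slc7a1* had 1 RNA count over all 6 RNA libraries beside 138 to 470 footprint counts per RPF library. The other 2 in RPF were *Tcea1*, a transcription elongation factor (0.58, SE 0.25, range 0.43 to 0.92), and *Xpot*, which exports tRNA from the nucleus (0.41, SE 0.19, range 0.32 to 0.50). In RNA *Tcea1* had the lowest value of the list (-0.40, SE 0.26, range -0.62 to -0.22), opposite in sign to its footprints, and it was the gene with an unadjusted p below 0.05 in TE (1.01, SE 0.40). *Slc7a1*, *Xpot* and *Eif2s2* were chosen after their values were seen. *Ddit4*, an inhibitor of the growth kinase mTORC1, had the highest RNA value (1.81, SE 0.60, edgeR adjusted p = 0.999), with 4, 2 and 11 counts in WT and 28, 7 and 22 in KO. Its RNA range was 1.27 to 2.54, and its footprint value was 0.36 (SE 0.26, range 0.03 to 0.65). *Atf3*, a further stress factor, had the highest footprint value (1.08, SE 0.69), with 11, 2 and 11 counts in WT and 39, 18 and 15 in KO, and a range of 0.68 to 1.35. The lowest was that of *Mthfd1l* (-1.15, SE 0.73, range -1.52 to -0.40), with 8, 12 and 34 counts in WT and 17, 16 and 3 in KO.

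Serine and one-carbon enzymes, of which 4 are also among the Atf4 targets, had a median of 0.07 in RNA (6 of 11 higher) and -0.13 in RPF (7 of 16 higher). They had 1 unadjusted p below 0.05 in RNA and 0 in RPF, against 2.54% and 5.96% of all genes tested. The lowest RNA value was that of *Tyms*, thymidylate synthase (-0.63, SE 0.28, range -0.82 to -0.44), and the highest that of *Psph*, the last enzyme of serine synthesis (0.53, SE 0.32, range 0.24 to 0.79). In RPF they were *Mthfd1l*, a mitochondrial folate enzyme (-1.15, SE 0.73, range -1.52 to -0.40), and *Mtr*, methionine synthase (0.27, SE 0.18, range 0.14 to 0.53). Chaperones and proteases of mitochondrial stress were all tested (15 of 15) and had medians of -0.04 in RNA and -0.04 in RPF, with 0 unadjusted p-values below 0.05. Their extremes were *Dnaja3* (0.27, SE 0.30, range 0.04 to 0.55) and *Spg7* (-0.23, SE 0.16, range -0.30 to -0.18) in RNA and *Yme1l1* (0.32, SE 0.16, range 0.19 to 0.47) and *Hspe1* (-0.26, SE 0.22, range -0.39 to -0.14) in RPF. Endoplasmic reticulum stress genes had medians of 0.04 in RNA (11 of 16 higher) and 0.07 in RPF (16 of 21 higher), also with 0 unadjusted p-values below 0.05. Over all genes tested, 4111 of 8379 were higher in RNA and 5599 of 11153 in RPF. *Sdf2l1* (0.49, SE 0.32, range 0.28 to 0.77) and *Dnajc3* (-0.22, SE 0.31, range -0.47 to 0.20), which help fold proteins in that compartment, were the extremes in RNA. *Edem1* (0.66, SE 0.49, range 0.46 to 1.15), which clears misfolded proteins, and *Creld2* (-0.42, SE 0.36, range -0.67 to 0.20) were those in RPF. In TE the medians were 0.17 for eIF2 control, 0.02 for other targets, -0.07 for serine and one-carbon, 0.01 for mitochondrial stress and 0.03 for endoplasmic reticulum stress, against 0.01 over all genes.

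**Figure D5:**
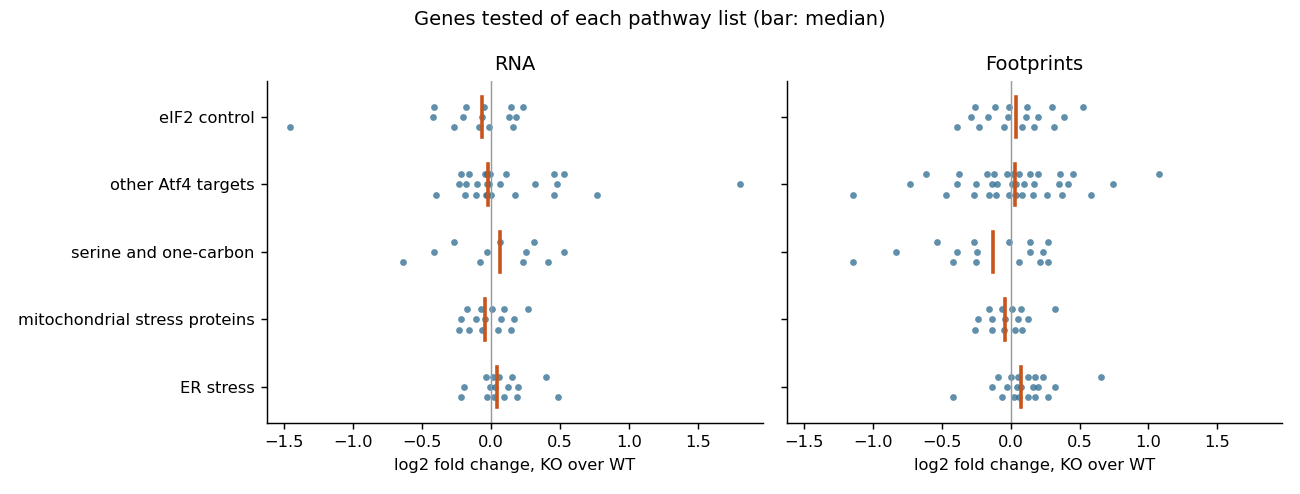
Log2 fold changes, KO over WT, of every tested gene in 5 pathway lists, in RNA (left) and footprints (right); each dot is a gene and the orange bar the list's median. Medians lie between -0.13 and 0.07, and *Eif2ak3* (-1.46) and *Ddit4* (1.81) are the outlying points in RNA.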

How the data were processed

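The deposited values are raw counts per transcript name, whole numbers made by the authors. The submitters' processing notes name cutadapt 1.18 and Bowtie2 2.4.2; the counter, build, region counted and use of strand are not given in the sources used here. Of 21669 rows, 98.87% matched GENCODE M21 names, which gave coordinates and lengths. Genes and lists were chosen with earlier results of these data known, and p-values take no account of that.

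Fits used edgeR 4.0.16 in R 4.3.3 across all genes: filterByExpr (minimum count 10), TMM factors (levels are CPM, counts over the TMM-scaled library size), quasi-likelihood tests of genotype within each assay and of the assay by genotype interaction for TE, and Benjamini-Hochberg adjustment at 0.05. DESeq2 1.42.0 was an alternative. The fits were also run on simulated counts with the same spread between replicates for every gene and no outlying library. That run therefore does not measure how the fits perform on these libraries. Each SE was obtained from the size of the fold change over the square root of its F statistic. The floor of 3 counts covers counting error only. Genes outside the members were named as the highest and lowest of each list, except where stated. Ratios of footprints to RNA used nuclear-encoded counts. Sequences were read from RefSeq promoter windows in Python 3.11.15.

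Other alternatives were median-of-ratios scaling, no filter, removal of mitochondrially encoded rows, a replicate block, 1 fit of all 12 libraries and leaving out each replicate. A term for the RNA split was added after the data were seen.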

Additional observations from a re-analysis of the deposited data

How the results depend on the processing

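Members called stayed at 0 in RNA, RPF and TE under every alternative run. Of 216 member fold changes under alternatives, 210 kept their direction and 6 reversed, all when 1 replicate was left out. In RNA, *Atf4* ranged from -0.070 (without KO 2) to 0.17 and *Phgdh* from -0.079 (without KO 3) to 0.20. In RPF, *Asns* ranged from -0.62 to 0.062 (without KO 1), *Atf5* from -0.34 to 0.010 (without WT 3) and *Phgdh* from -0.032 (without WT 1) to 0.87; *Phgdh* in TE ranged from -0.083 (without WT 1) to 0.80. *Ddit3* stayed negative throughout: its RNA values lay between -0.90 (without KO 2) and -0.35, its RPF values between -1.54 and -1.06.

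Counts over all genes moved more. Called genes in RNA were 4 without a filter and 6 with the split term, against 1. In RPF they were 60 without a filter, 5 in DESeq2 and 4 with the replicate block, against 1, and leaving out single replicates gave 1 to 2. In TE, DESeq2 called 1, against 0. Among the other Atf4 targets in RPF, 1 gene (*Slc7a1*) was among the 60 called without a filter, against 0 in the main fit. The causes were not tested.

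Replicate numbers were not taken as pairs: across genes, deviations of same-numbered WT and KO libraries correlated at -0.205, 0.366 and 0.393 in RNA and 0.061, 0.029 and 0.004 in RPF, and 4 of 6 and 3 of 6 libraries correlated best with their own number. The replicate block changed no call among the members; its RNA value for *Ddit3* was -0.58 (SE 0.18, edgeR adjusted p = 0.999). Deviations of RNA and RPF libraries with the same number correlated at 0.076 to 0.152 in WT and 0.106 to 0.121 in KO, and all 6 libraries of each genotype correlated best with their own number, a hint from the data, not the design. Footprint values of the members rest on at most 73 counts per library, which limits what differences could be seen.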

Other observations

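*Ppp1r15a*, the inducible phosphatase subunit that ends the response, had a footprint-to-RNA ratio of 0.0785 (percentile 1.98, from 807 RNA and 92 footprint counts), between *Ddit3* and *Atf5*. Its constitutive relative *Ppp1r15b* had a ratio of 10.6 (percentile 82.0, from 40 RNA and 660 footprint counts), which is 18.4 in WT and 7.01 in KO. By replicate number the *Ppp1r15b* ratio was 26.24, 22.35 and 11.64 in WT and 4.696, 7.579 and 11.99 in KO, which overlap. Its RNA was low, at 1.25 ± 0.49 (WT) and 2.75 ± 1.2 (KO) CPM of nuclear-encoded counts (SD, n = 3 each). Its footprint log2 fold change was -0.26 (SE 0.24, edgeR adjusted p = 0.892). Among rows within a factor of 2 of the gene's RNA level, 1.32% of 2270 were lower than *Ppp1r15a*. For *Ppp1r15b* it was 77% of 3111. *Ppp1r15a* and *Ppp1r15b* were set side by side after the ratios of the members were seen. The receptors of the 2 hormones were uneven in this tissue: *Fgfr1* had 708 footprint counts over 6 libraries and *Klb*, the co-receptor that Fgf21 needs, had 30 (15 of them in 1 library). *Gfral*, the receptor of Gdf15, had 0 footprint and 8 RNA counts, while its partner *Ret* had 334 footprint counts. *Fgfr4* had 6 footprint and 0 RNA counts. *Fgfr1* was tested in both assays, with log2 fold changes of 0.16 (SE 0.27, range 0.06 to 0.38 over the alternatives) in RNA and 0.10 (SE 0.23, range -0.04 to 0.25) in RPF, and *Ret* in RPF (-0.14, SE 0.38, range -0.37 to 0.37).

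The genes whose level followed *Atf4* most closely over the 12 libraries, each assay centred on its own mean, were *Uspl1* (Pearson's r 0.92), *Cma1* (0.917) and *Traf3ip2* (0.91), of 8044 genes. By rank (Spearman's rho) they were lower, at 0.825, 0.671 and 0.713. Among members tested in both assays, *Phgdh* was at 0.756, *Asns* at -0.149, *Atf5* at -0.253 and *Ddit3* at -0.345. Spearman's rho was 0.203 for *Phgdh*, and both genes were lowest in the RPF library WT 1. The values share library depth and scaling and are given as a description.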
